A study of Mus musculus with 6 samples.

Results

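The genes described here encode 6 cytosolic translation elongation factors of the mouse: Eef1a1, Eef1a2, Eef1b2, Eef1d, Eef1g and Eef2. Their Ensembl gene identifiers are ENSMUSG00000037742 (Eef1a1), ENSMUSG00000016349 (Eef1a2), ENSMUSG00000025967 (Eef1b2), ENSMUSG00000055762 (Eef1d), ENSMUSG00000071644 (Eef1g) and ENSMUSG00000034994 (Eef2). They were chosen by these identifiers and not by a rule on their values, although earlier results of these data were known when they were chosen. All 6 were found among the 16976 identifiers of the count table. All samples were LARP1 immunoprecipitates from dorsal root ganglia (DRG) of mice of wild-type genotype. DRG lie along the spinal cord and contain the cell bodies of sensory neurons; they also hold Schwann cells, satellite glia and other cells. The injured group came from mice with a sciatic nerve injury, which damages the peripheral axons of many DRG neurons, and the uninjured group from mice without it. Each group had 3 libraries. The time after injury, the age and sex of the mice and the number of animals behind a library are not stated in the labels. RNA recovered with the antibody was read as nanopore cDNA, and the values are estimated counts per gene. Neither total ganglion RNA nor a control precipitate was analysed here, so a level is the amount of a gene's RNA in the precipitate relative to all counted RNA, and not its enrichment by LARP1.

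Elongation factors carry out the cycle by which a ribosome adds amino acids. The GTP-binding factor eEF1A brings the charged tRNA to the ribosome, the eEF1B complex reloads eEF1A with GTP, and eEF2 moves the ribosome along the mRNA. Vertebrates have a pair of eEF1A proteins: Eef1a1 is active in most tissues, while Eef1a2 is the form of mature neurons and of heart and skeletal muscle, in which it takes over from Eef1a1 after birth. LARP1 is known for binding mRNAs that begin with a terminal oligopyrimidine (TOP) tract, a C followed by a run of C and T letters at the first base of the transcript, and mRNAs of elongation factors are classical members of that class.

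The sequences around the annotated start were available for 4 of the 6 genes and are shown because the tract that LARP1 recognises lies at the start of the transcript. Each is 60 bases long, from 30 bases before to 30 bases after the RefSeq start (GRCm38.p6), written 5′ to 3′ on the gene's strand. Capitals mark every tract of a C followed by at least 4 letters that are each C or T; overlapping matches were joined into the longest tract.
Eef1a1: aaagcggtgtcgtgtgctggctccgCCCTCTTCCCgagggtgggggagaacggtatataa
Eef1a2: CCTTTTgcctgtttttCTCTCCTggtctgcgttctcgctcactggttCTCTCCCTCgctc
Eef1b2: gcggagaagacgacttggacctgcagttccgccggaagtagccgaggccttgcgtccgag
Eef2: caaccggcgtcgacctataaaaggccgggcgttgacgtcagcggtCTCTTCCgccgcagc

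The Eef1a1 window lies at chr9:78481695-78481754 on the minus strand, and its tract of 10 letters begins at position -5 and runs across the annotated start. Whether this tract is part of the Eef1a1 mRNA was not tested. The Eef1a2 window is chr2:181156986-181157045, minus strand, with tracts of 6, 7 and 9 letters that begin at -30, -14 and 18. The Eef1b2 window, chr1:63176801-63176860 on the plus strand, holds none. When only the first 50 bases after the start are searched, Eef1a2, Eef1b2 and Eef2 have 1 tract each. Eef1a1, whose tract begins before the start, has 0 in that search. Of all start windows, 51.3% hold at least 1 tract there. In the Eef2 window, chr10:81176601-81176660 on the plus strand, a tract of 7 letters begins at position 16. None of these tracts begins at the annotated first base, as a tract does for 2.51% of the 32851 start windows of all genes in RefSeq. A tract anywhere in the 60 bases was held by 59.1% of these windows on the gene's strand and by 65.0% on the opposite strand, and 3 of only 4 windows here are not set apart from that share. On the opposite strand, the windows of Eef1a1 and Eef1b2 hold 2 tracts each, that of Eef2 holds 1 and that of Eef1a2 holds 0. Annotated starts can differ from the base at which transcription begins in DRG, which was not measured here. The windows therefore cannot show whether the mRNAs of these genes begin with a TOP tract.

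The libraries held 116186 to 116608 counts in the uninjured group and 211337 to 211879 in the injured group. Within each group the 3 libraries nearly matched to counting noise. For genes with 15 or more counts over a group's libraries, the variance between libraries was 1.16 times that of counting in the uninjured and 1.12 times in the injured group. For the 6 elongation factors this quotient ranged from 0.0335 for Eef1a1 to 1.24 for Eef1g in the uninjured group, and from 0.143 for Eef1b2 to 1.51 for Eef1d in the injured group. The libraries of a group were therefore summed and counted as 1 sample, and no p-value is given for a gene. Levels are CPM, a gene's counts per 1000000 counts of the library or group. Intervals are 95% exact intervals (Poisson for a level, Clopper-Pearson for a ratio or a share) and cover the counting error of reads only. PCR reads are not independent molecules, so the intervals can be too narrow. The injured group was 1.82 times as deep as the uninjured one, and with 1 sample a group a batch that coincides with the groups and the injury itself cannot be told apart.

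The elongation factors did not move as one between the groups. Eef1a1, Eef1g and Eef1b2 were 2.50 to 4.21 times as high in the injured precipitate, Eef1d was 2.24 times as high in the uninjured one, and Eef1a2 and Eef2 were within 1.5-fold of equal. All 6 genes passed edgeR's filter on low counts. A ratio above 1.5 was found for 3 of the 6 and for 30.0% of the 3158 genes that passed, and a ratio below its inverse for 1 of the 6 and for 21.0% of the genes. These background shares depend on the filter: among the 296 genes whose mean level reached 500 CPM they were 23.0% and 27.0%, and among the 13236 genes with any count 30.2% and 33.4%. The libraries of the groups did not overlap for 5 of the 6 genes, 3 of them higher and 2 lower with injury. The same held for 55.5% of the genes that passed, 32.4% higher and 23.1% lower, so a lack of overlap was common in this table. The median log2 ratio was 0.67 over the 6 genes and 0.08 over all genes that passed. With so few genes, the count of 3 is not set apart from that background.

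**Figure D1:**
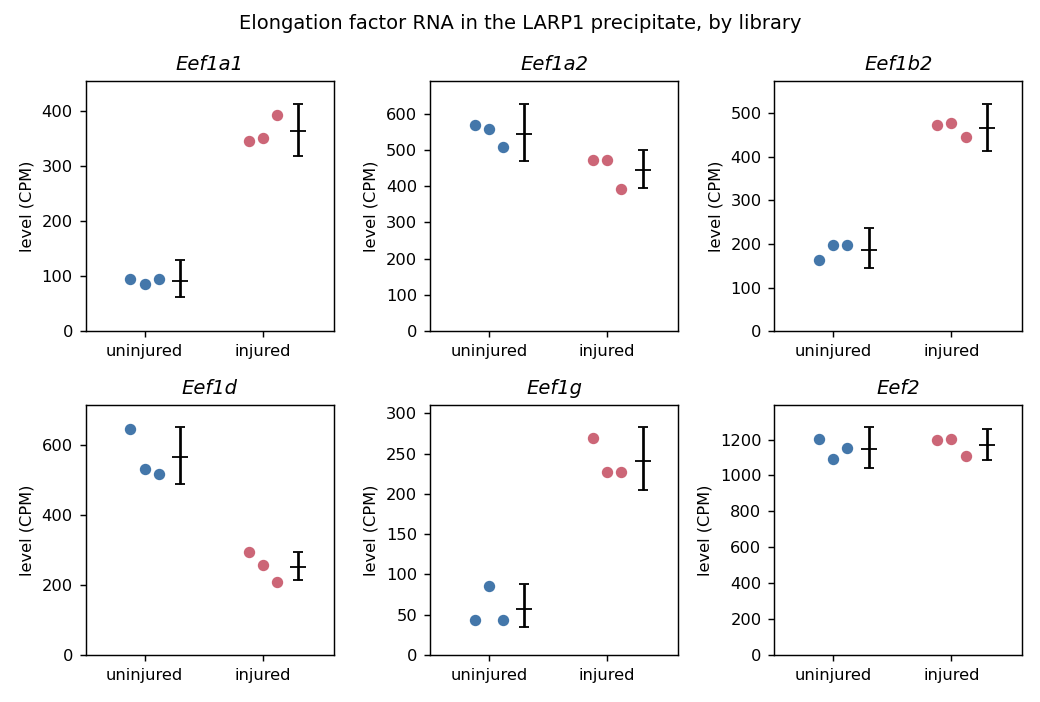
Level of each elongation factor in CPM, one panel per gene, for the uninjured (blue) and injured (red) libraries. Points are the 3 libraries of a group, and the black mark beside them is the summed group with its 95% exact Poisson interval. The points of the groups are apart for every gene except Eef2, as they are for 55.5% of all genes that passed the filter.

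Of the eEF1A pair, Eef1a1 had few counts without injury and many more with it. Without injury its counts were 11, 10 and 11, and with injury they were 73, 74 and 83. Per library this was 94.6, 85.8 and 94.7 CPM without injury against 345, 350 and 393 CPM with it. The libraries of each group lie close together, and every injured library stood above every uninjured one, by 3.64 to 4.58 times over the 9 pairs of an injured with an uninjured library. The summed level of Eef1a1 was 91.7 CPM (95% interval 62.7 to 129) in the uninjured group and 362 CPM (317 to 412) in the injured group, a ratio of 3.95 (2.72 to 5.92). A higher ratio was found for 5.67% of all genes that passed the filter.

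Eef1a2, the neuronal and muscle form, went slightly the other way. The uninjured libraries gave 66, 65 and 59 counts and the injured ones 100, 100 and 83. On the scale of depth these are 568, 557 and 508 CPM without injury and 472, 473 and 393 CPM with it. The groups did not overlap, although the lowest uninjured library, at 508 CPM, was near the highest injured one, at 473 CPM. The summed level of Eef1a2 was 544 CPM in the uninjured group (470 to 628) and 446 CPM in the injured group (395 to 501). The ratio of 0.819 had an interval of 0.679 to 0.990, whose upper end is close to 1. It is a small difference beside the other genes of the table, of which 32.0% had a lower ratio.

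The balance of the pair therefore differed between the groups, and this measure does not depend on how libraries are scaled. Of the counts of Eef1a1 and Eef1a2 together, Eef1a2 held 85.7%, 86.7% and 84.3% in the uninjured libraries. It held 57.8%, 57.5% and 50% in the injured libraries, all below the uninjured ones. Over the summed groups the share was 85.6% (95% Clopper-Pearson interval 80.3% to 89.9%, 190 of 222 counts) without injury and 55.2% (50.7% to 59.5%, 283 of 513 counts) with it. The difference of -30.42 percentage points had a 95% Newcombe interval of -36.32 to -23.68. In other words, there were 5.94 Eef1a2 counts for each Eef1a1 count without injury and 1.23 with it. Most of this came from the higher level of Eef1a1, since that of Eef1a2 differed by only 1.22 times. These are shares of reads, not corrected for how well each mRNA is recovered as reads, which can differ with its length. They therefore compare the groups, not the amounts of both mRNAs within a group.

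**Figure D2:**
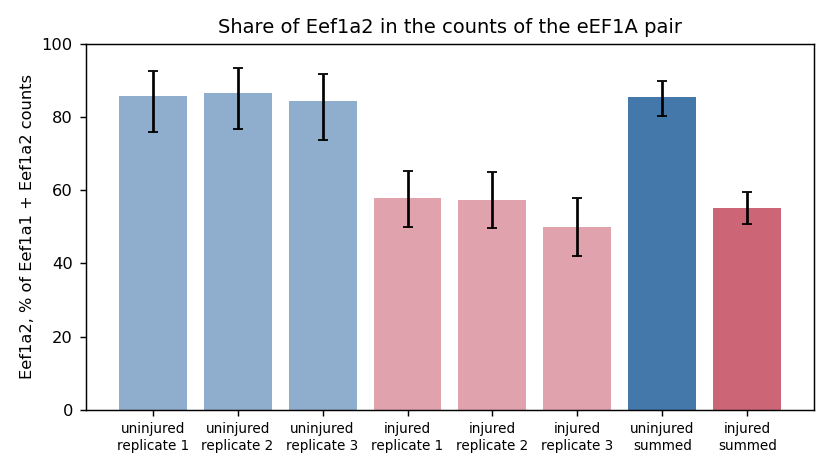
Percentage of the counts of Eef1a1 and Eef1a2 together that belonged to Eef1a2, for each library and for the summed groups, with 95% Clopper-Pearson intervals as error bars. The uninjured libraries sit between 84.3% and 86.7%, and the injured libraries between 50% and 57.8%.

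Eef1a1 has processed pseudogenes, copies of its mRNA in the genome, and the RefSeq gene table names 2 of them (and 1 for Eef2). Reads that fit both a gene and such a copy are divided by estimation, so the counts of Eef1a1 and Eef2 are uncertain to an extent that was not tested. Only copies named after their gene were looked for. Copies under other names would be missed, so the same uncertainty was not examined for the other genes described here.

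The eEF1B complex joins the products of Eef1b2, Eef1d and Eef1g, and these genes differed among themselves. Eef1b2 encodes a subunit that catalyses the exchange of GDP for GTP on eEF1A. Counts of 19, 23 and 23 without injury stood against 100, 101 and 94 with it. That is 163, 197 and 198 CPM without injury and 472, 478 and 445 CPM with it. Every injured library was at least 2.25 times as high as any uninjured one. Summed, Eef1b2 was at 186 CPM without injury (144 to 237) and at 465 CPM with it (413 to 521). The ratio was 2.50 (1.90 to 3.32), and 12.4% of all genes that passed the filter had a higher one.

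Eef1g, whose product is a structural subunit that holds the complex together, had the highest ratio of the 6 genes. The uninjured libraries gave 5, 10 and 5 counts and the injured ones 57, 48 and 48, or 43.0, 85.8 and 43.0 CPM against 269, 227 and 227 CPM. The second uninjured library stood above the others by only 5 counts, and the groups were still far apart. Over the pairs of libraries the ratio ran from 2.65 to 6.25. The summed level of Eef1g was 57.3 CPM (35.0 to 88.5) without injury and 241 CPM (204 to 282) with it. The ratio was 4.21, and its interval of 2.63 to 7.08 is wide because it rests on 20 uninjured counts. Among all genes, 5.03% had a higher ratio.

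Eef1d, which encodes the second subunit with exchange activity, was the only one of the 6 past 1.5-fold in the opposite direction. Its counts were 75, 62 and 60 without injury and 62, 54 and 44 with it, although the injured libraries were deeper. The levels were 645, 532 and 516 CPM without injury and 293, 256 and 208 CPM with it. The lowest uninjured library was 1.76 times as high as the highest injured one. Summed, Eef1d was at 564 CPM (488 to 649) in the uninjured group and at 252 CPM (215 to 294) in the injured group. The level without injury was thus 2.24 times that with it (1.81 to 2.78), and 6.97% of all genes had a lower ratio of injured to uninjured. Eef1d is known for a long splice form, made in brain and testis, that acts as a transcription factor. RefSeq lists 8 curated mRNAs for Eef1d and 1 for each of the other 5 genes, and counts per gene do not tell its forms apart.

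Summed, the counts of the eEF1B subunit genes did not show these opposite directions. Together they were at 808 CPM (716 to 908) without injury and 958 CPM (883 to 1037) with it, a ratio of 1.19 (1.03 to 1.37). A higher ratio was found for 42.3% of all genes that passed the filter.

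Eef2, the translocation factor, was at nearly the same level in both groups. Without injury the libraries gave 140, 127 and 134 counts, and with injury 254, 254 and 234. Per library, the level was 1204, 1089 and 1153 CPM without injury and 1199, 1202 and 1107 CPM with it, and the groups overlapped. Summed, Eef2 was at 1149 CPM without injury (1039 to 1267) and at 1169 CPM with it (1087 to 1256). The ratio was 1.02, and its whole interval of 0.900 to 1.15 lay within 1.5-fold of equal. Its log2 value of 0.03 had the opposite sign, at -0.05, with edgeR's TMM factors. The gene sat near the middle of the table, where 47.2% of genes had a lower ratio.

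**Figure D3:**
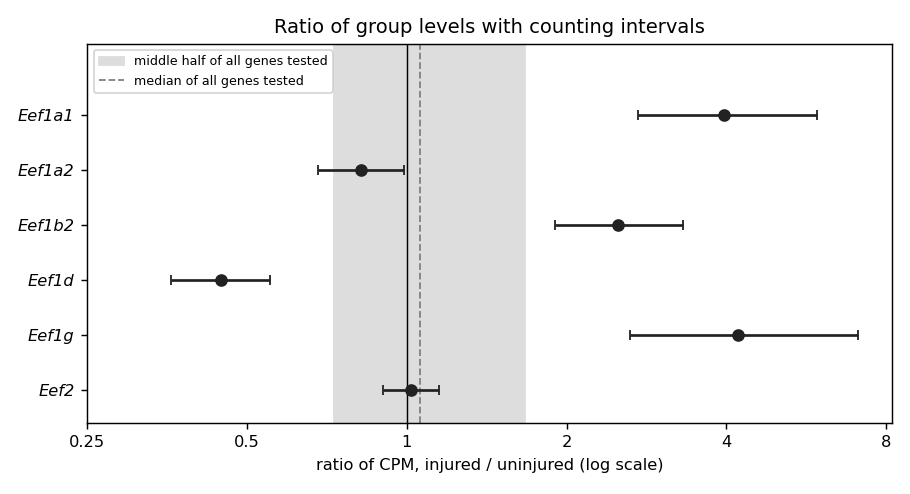
Ratio of the summed level in the injured group to that in the uninjured group for each elongation factor, on a log scale, with 95% exact Clopper-Pearson intervals. The grey band spans the middle 50% of the 3158 genes that passed the filter and the dashed line is their median of 1.06. Eef1a1 at 3.95, Eef1b2 at 2.50 and Eef1g at 4.21 lie to the right of the band, and Eef1d at 0.447 lies to its left.

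The ratios of the genes were set against each other in all 15 pairs, as the ratio of one gene's injured-to-uninjured ratio to the other's, with an exact conditional interval. In 11 pairs the interval excluded 1. Eef1a1 exceeded Eef1a2 by 4.83 times (3.16 to 7.53). The widest gap was that of Eef1g over Eef1d, at 9.42 times (5.56 to 16.5). Eef1b2 exceeded Eef1d by 5.59 times (3.93 to 7.98), so the genes of the 2 exchange subunits of eEF1B stood on opposite sides. Eef1a1 also exceeded Eef2, by 3.88 times (2.61 to 5.92). The order of the ratios from high to low was Eef1g, Eef1a1, Eef1b2, Eef2, Eef1a2 and Eef1d.

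In the other 4 pairs the interval included 1. Eef1g over Eef1a1 gave 1.06 (0.566 to 2.04), Eef1a1 over Eef1b2 gave 1.58 (0.983 to 2.59), and Eef1g over Eef1b2 gave 1.69 (0.964 to 3.05). The order of these 3 genes is thus not resolved by their counts, and the intervals also leave room for differences past 2-fold. Eef2 over Eef1a2 gave 1.24 (0.990 to 1.56).

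**Figure D4:**
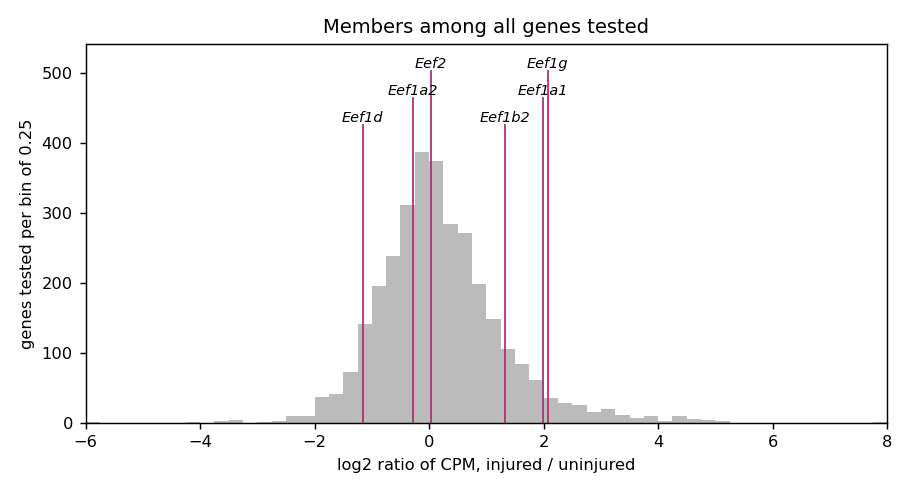
Histogram of the log2 ratio of injured to uninjured level over the 3158 genes that passed the filter, in bins of 0.25, with the 6 elongation factors as vertical lines. Eef1a1 at 1.98 and Eef1g at 2.07 lie in the right flank, Eef1d at -1.16 in the left flank and Eef2 at 0.03 near the centre.

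Taken as one pool, the 6 genes made up 0.259% of all counts without injury (95% interval 0.243% to 0.277%) and 0.294% with it (0.280% to 0.307%), and what differed was mainly the makeup of that pool. Per library the pool was at 2719, 2547 and 2513 CPM in the uninjured and 3049, 2986 and 2772 CPM in the injured group, a ratio of the summed levels of 1.13 (1.05 to 1.23). That ratio is near the middle of the table, where 45.7% of the genes that passed the filter had a higher one. Eef2 held the largest part of the pool's reads in both groups, at 44.3% (41.0% to 47.6%) without and 39.8% (37.6% to 42.1%) with injury. Eef1d went from 21.8% of them to 8.59% and Eef1a2 from 21.0% to 15.2%. Eef1a1 went from 3.54% to 12.3%, Eef1b2 from 7.18% to 15.8% and Eef1g from 2.21% to 8.21%. As shares of reads, these numbers are not corrected for how well each mRNA is recovered either.

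In edgeR's quasi-likelihood test of the reads with Benjamini-Hochberg adjustment at 0.05, which compares these pools of reads and not the conditions, Eef1a1, Eef1b2 and Eef1g were called higher, as were 24.9% of the genes. Eef1a2 and Eef1d were called lower, as were 22.1% of the genes, and Eef2 was not called. In bulk precipitates such as these, fewer cells of a type and less RNA per cell cannot be told apart. Neither the markers of DRG cell types and of skeletal muscle nor 31 further genes of elongation, of termination and of their regulators were analysed here, since 0 identifiers of the count table could be matched to the gene table used. For the same reason no gene with a pattern like that of Eef1a1 or Eef1a2 is named.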

How the data were processed

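Per the labels' protocols, an antibody against LARP1 was used on lysate of fresh ganglia, the bound RNA was extracted with a column kit, and a nanopore kit for barcoded, PCR-amplified cDNA gave the libraries. The authors deposited estimated counts per Ensembl gene, not normalized. The submitters' processing notes name minimap2, Salmon and the build GRCm39 (mm39); their versions, parameters and filters are not given in the sources read. All values were whole numbers. Groups and replicate numbers came from sample titles, and columns were matched by library name; 0 further columns were left unused. Nothing says that libraries came from separate animals. Gene symbols of the 6 members came with the rule that chose them; the members and lists were chosen with earlier results of these data known.

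Counts were summed per group and scaled to CPM. Ratios and exact intervals were computed with SciPy 1.17.1 (Python 3.11.15), for members and for all 3158 genes kept by filterByExpr; where a group had no count, a floor of 3 counts was used (8.60 CPM uninjured, 4.73 CPM injured). A ratio past 1.5 in either direction was the call. edgeR 4.0.16 (R 4.3.3) and DESeq2 1.42.0 gave alternative fits. Ratios and edgeR's test were checked on simulated counts with known changes. Alternatives were other scalings, other filters, the replicate number as a block and leaving out each library; edgeR's calls as a background were added after the data were seen. All 6 members are named by rule. The precipitate's depth sets the precision: at 349027 uninjured and 634615 injured counts, intervals cover counting error only.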

Additional observations from a re-analysis of the deposited data

How the results depend on the processing

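Under the alternatives tried (TMM factors, DESeq2 size factors, totals without the 10 most abundant genes, edgeR and DESeq2 fits, no filter and leaving out each library), each log2 ratio of the 6 genes stayed within its counting interval. That of their sum did so under the 3 scalings and without each library; the fits were not run on the sum. Apart from leaving out libraries, Eef1a1 ranged from 1.89 to 2.02, Eef1b2 from 1.23 to 1.36, Eef1g from 1.98 to 2.10, Eef1d from -1.26 to -1.12, Eef1a2 from -0.38 to -0.24 and Eef2, which changed sign, from -0.07 to 0.07. Leaving out 1 library gave 1.92 to 2.02 for Eef1a1, 1.90 to 2.49 for Eef1g, -1.28 to -1.04 for Eef1d, and -31.76 to -27.95 percentage points for the share of Eef1a2. With the replicate block, edgeR's log2 ratios were 1.90 for Eef1a1, -0.36 for Eef1a2, 1.24 for Eef1b2, -1.23 for Eef1d, 1.99 for Eef1g and -0.05 for Eef2; deviations of same-numbered libraries correlated at -0.0405 to 0.0112, so the numbers were not taken to pair them. The background depends on the filter: with 1 count in any library as the filter, 3999 of 13236 genes had a ratio above 1.5 and 4425 below its inverse, and with a mean of at least 500 CPM, 68 and 80 of 296 genes. As shares, genes above 1.5 made up 30.2% and 23.0% and genes below its inverse 33.4% and 27.0%, against 30.0% and 21.0% in the report, so that lower ratios outnumbered higher ones under both filters; the cause was not tested. With a mean of at least 50 CPM as the filter, higher ratios were again the more frequent, at 27.6% against 22.6% of 3455 genes. All 6 genes pass that filter, while only Eef2 passes the one at 500 CPM. Depth limits Eef1g and Eef1a1 most, with 20 and 32 uninjured counts.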
